A study of Mus musculus with 18 samples.

Results

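The neuregulins and the receptors they act through were followed by every probe set that names 1 of the genes Nrg1, Nrg2, Nrg3, Nrg4, Egfr, Erbb2, Erbb3 and Erbb4 and no other gene. These 8 genes have 19 probe sets among the 45037 tested, 8 for the ligands and 11 for the receptors, and the arrays name 18193 genes in all. The tissues were interscapular brown adipose tissue (BAT), inguinal subcutaneous white adipose tissue (sWAT) and mesenteric white adipose tissue (mWAT) of female Sv129 mice aged 10 weeks. The labels name no genetic change, and all mice had spent 10 days at 28°C, close to thermoneutrality for a mouse, or at 6°C. Each depot and temperature had 3 Affymetrix arrays (18 in all) of amplified RNA, and the study asked how the depots differ at thermoneutrality and how each responds to cold.

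Neuregulins are growth factors with an EGF-like domain that is released from a membrane-bound precursor by cutting enzymes. NRG1 and NRG2 bind ErbB3 and ErbB4, whereas NRG3 and NRG4 bind ErbB4. The receptors work in pairs: ErbB2 binds no known ligand and is the preferred partner of the others, the kinase of ErbB3 is weak, and EGFR takes EGF and its relatives. They signal through adaptors to the ERK and phosphatidylinositol 3-kinase pathways, and in peripheral tissue the family is best known from Schwann cells, which need ErbB2 and ErbB3, and from the mammary gland.

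All levels below are log2 of the deposited intensity. Arrays are given in the order of replicates 1, 2 and 3, which only names them. Differences are log2 differences ± SE from 1 limma fit of all 18 arrays with n = 3 arrays in a group, and a probe set passed when its Benjamini-Hochberg adjusted p over all 45037 probe sets was under 0.01. A level is that of the probe set of highest mean of a gene unless another is named. The levels of different probe sets are not compared, since each has its own brightness. Array medians lay between 6.97 and 7.20, and no detection calls came with the values, so for a probe set below the medians the exact size of a difference is not measured. Of the 19 probe sets, 7 from 4 genes (both of Nrg4, 3 of Egfr, 1 each of Erbb2 and Erbb3) had a mean above 7.10, the median of all probe set means. No probe set of Nrg1, Nrg3 or Erbb4 exceeded the median of its array on any of the 18 arrays, and that of Nrg2 did so on 4.

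Depot and temperature were read from the titles, which the tissue or temperature among the other characteristics contradicts for 18 of 18 samples. Groups by title account for 94.8% of the variance of Nrg4 between arrays and for 96.0% of that of Erbb3, against 50.4% and 48.7% for groups by the characteristics. For the dim Nrg1 and Erbb4 the shares were 54.5% and 53.3% by title, against 48.1% and 37.5%. The same groups are used below to compare these genes, so the shares are no independent check of the titles. Both mWAT arrays of replicate 3 stood apart from the other mWAT arrays. Their mean over 10 lymphocyte markers was 6.88 at 28°C and 6.77 at 6°C, against 11.3 to 11.4 on the other 4, and values without these 2 arrays are given beside the results of mWAT. Arrays also differed within groups in markers of neighbouring tissue: the mean over 6 exocrine pancreas markers was 10.8 in BAT replicate 3 at 6°C, 10.4 in mWAT replicate 1 at 28°C and 14.1 in mWAT replicate 2 at 6°C, against 4.76 to 7.31 on the other arrays, and that over 12 skeletal muscle markers ranged from 7.80 to 12.4 in sWAT at 28°C and from 6.31 to 11.6 in sWAT at 6°C. Brown adipocyte markers placed the depots as labelled, with group means at 28°C of Ucp1, the uncoupling protein of brown fat, of 14.03 for BAT, 10.15 for sWAT and 6.48 for mWAT. In bulk tissue fewer cells of a type and less RNA per cell cannot be told apart.

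The 250 bases before the start of Nrg4 are shown because Nrg4 is the member that differed both between depots and with cold. They come from RefSeq (GRCm38.p6, minus strand, chr9:55283626-55283875), and 5 of the 8 genes have a promoter in that table. Capitals mark TGACCT, the reverse complement of AGGTCA, the half-site that many nuclear receptors bind.
Nrg4 promoter: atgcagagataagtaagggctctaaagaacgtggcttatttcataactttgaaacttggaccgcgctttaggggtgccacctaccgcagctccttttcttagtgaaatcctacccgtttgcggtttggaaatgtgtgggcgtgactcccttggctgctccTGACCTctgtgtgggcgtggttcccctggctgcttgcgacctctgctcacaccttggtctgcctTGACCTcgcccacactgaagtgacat
The copies begin 90 and 26 bases before the start. Searched on both strands, AGGTCA occurs at least 1 time in 14% of 32851 promoters of the same length and at least 2 times in 1.34%. The cyclic AMP response element TGACGTCA (1.55% of promoters), GGGCGG (32.7%), CCAAT (33.8%) and TATAAA (12.4%) gave 0 matches in these 250 bases. The motifs were picked with the sequence in view, no motif overlaps another here, and a match is only a match of letters.

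Nrg4 had its highest levels in BAT, and cold raised it in sWAT in 1 of its 2 probe sets. In probe set 1421681_at the BAT arrays read 13.19, 13.16 and 13.14 at 28°C and 12.89, 12.92 and 12.89 at 6°C. The sWAT arrays read 11.63, 11.36 and 12.25 at 28°C and 12.47, 12.62 and 12.66 at 6°C. In mWAT they read 11.10, 10.92 and 11.34 at 28°C and 11.72, 11.62 and 11.72 at 6°C. Every array of a white depot was thus higher at 6°C than every array of that depot at 28°C, and every BAT array was above every white one. Over all probe sets, the 3 arrays of the 2 temperatures separated without overlap in 36.5% for BAT, 19.1% for sWAT and 7.11% for mWAT. Between BAT and sWAT, BAT and mWAT, and sWAT and mWAT the shares were 52.1%, 50.8% and 25.1% at 28°C and 53.9%, 55.5% and 26.9% at 6°C. The order of the group means ran from BAT at 28°C to BAT at 6°C, sWAT at 6°C, sWAT at 28°C, mWAT at 6°C and mWAT at 28°C, and the only neighbours whose arrays overlapped were sWAT at 28°C and mWAT at 6°C. In probe set 1457123_at the BAT arrays read 11.09, 11.32 and 11.37 at 28°C and 11.49, 11.40 and 11.28 at 6°C. Those of sWAT read 9.89, 9.31 and 10.22 at 28°C and 11.37, 11.25 and 11.24 at 6°C, and those of mWAT 9.08, 9.08 and 8.95 at 28°C and 10.41, 10.27 and 10.35 at 6°C. Here sWAT at 6°C lay within the range of the BAT arrays, whereas mWAT at 6°C was above sWAT at 28°C and below BAT. The 2 probe sets had a Pearson r of 0.93 over the 18 arrays, which share groups.

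**Figure D1:**
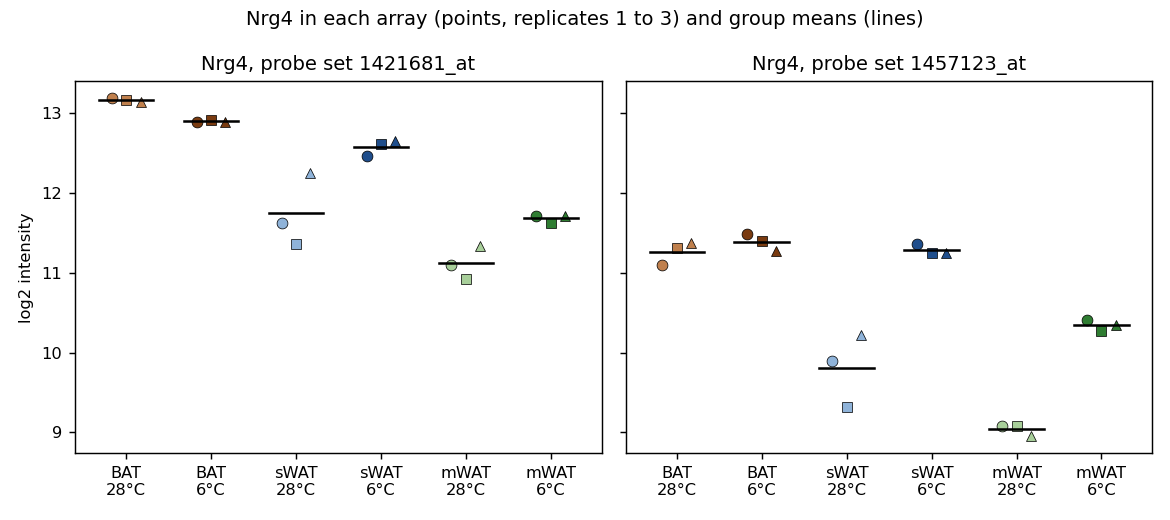
Log2 intensity of Nrg4 (vertical axis) on each of the 18 arrays by depot and temperature (horizontal axis), for probe sets 1421681_at (left) and 1457123_at (right). Points are arrays, with circles, squares and triangles for replicates 1, 2 and 3, and lines are group means. In both panels the arrays of sWAT and mWAT at 6°C all sit above those of the same depot at 28°C, while BAT moved by -0.26 in the left panel and 0.13 in the right.

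At 28°C Nrg4 was higher in BAT than in sWAT by 1.42 ± 0.17, 2.67-fold (limma adjusted p = 2.4e-05), and than in mWAT by 2.05 ± 0.17, 4.13-fold (adjusted p = 5.7e-07). Probe set 1457123_at gave 1.45 ± 0.17 and 2.23 ± 0.17. The study itself singled out Nrg4 from these arrays, so its p-values are no independent evidence. It also measured Nrg4 by qRT-PCR, immunohistochemistry and ELISA and looked for it in other data sets, none of which is examined here. At 6°C the difference from sWAT did not pass in either probe set (0.32, adjusted p = 0.16, and 0.10, adjusted p = 0.66), with 95% intervals of -0.05 to 0.69 and -0.27 to 0.47. The difference from mWAT at 6°C passed in both, at 1.22 ± 0.17 and 1.05 ± 0.17. Between the white depots Nrg4 was higher in sWAT than in mWAT at 6°C in both probe sets (0.89, adjusted p = 0.00293, and 0.94, adjusted p = 0.00184). At 28°C this difference was 0.63 (adjusted p = 0.033) in 1421681_at and 0.77 (adjusted p = 0.00868) in 1457123_at, and the latter call was lost, at an adjusted p of 0.0104 to 0.0439, without any single array other than replicate 2 of sWAT at 28°C. Without both mWAT arrays of replicate 3 the BAT to mWAT differences at 28°C were 2.16 and 2.18, and the sWAT to mWAT differences at 6°C were 0.91 and 0.95, all still past the threshold. The difference at 28°C between sWAT and mWAT in 1457123_at was then 0.73 (adjusted p = 0.0383). At 6°C the call of 1421681_at between these depots was lost without sWAT replicate 2 or 3 or mWAT replicate 1 or 2 at 6°C (adjusted p of 0.0109 to 0.0142), and that of 1457123_at without sWAT replicate 1 at 6°C (0.0104). With only sWAT and mWAT at 1 temperature fitted, neither probe set passed at 6°C (adjusted p of 0.0134 and 0.0106), nor did 1457123_at at 28°C (0.148).

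In sWAT 1457123_at rose by 1.48 ± 0.17 in the cold, 2.79-fold (adjusted p = 0.000624). This was the single member probe set of 19 that passed in sWAT, where 0.48% of all probe sets did, and it passed on leaving out any 1 of the 18 arrays. With only the 6 sWAT arrays fitted, which leaves fewer arrays for the spread, the same difference had an adjusted p of 0.0968 and did not pass. Probe set 1421681_at differed by 0.83 ± 0.17, 1.78-fold (adjusted p = 0.0271). Without replicate 3 of sWAT at 28°C, the array with the highest Nrg4 of its group, that difference was 1.08 (adjusted p = 0.00114). In mWAT 1457123_at differed by 1.31 ± 0.17, 2.47-fold (adjusted p = 0.033), and 1421681_at by 0.57 ± 0.17 (adjusted p = 0.873). Neither passed, in a contrast in which 0.00222% of all probe sets did. The study, by its own fit, lists Nrg4 among the genes that cold raised in mWAT. Its account of the qRT-PCR instead names BAT, sWAT and gonadal white fat as the depots where cold raised Nrg4, and leaves out mWAT. Elsewhere it describes the rise in BAT as small. Without sWAT replicate 2 or 3 at 28°C, arrays that enter only through the shared spread, the adjusted p of 1457123_at in mWAT was 0.000886 or 0.00678, and without both mWAT arrays of replicate 3 it was 0.148 with a difference of 1.26. In BAT the differences were -0.26 ± 0.17 (adjusted p = 0.373) and 0.13 ± 0.17 (adjusted p = 0.705). The 3 BAT arrays at 6°C were all below those at 28°C in the first probe set and overlapped them in the second.

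The cold response of Nrg4 in BAT minus that in sWAT was -1.10 ± 0.25 (adjusted p = 0.0388) and -1.35 ± 0.24 (adjusted p = 0.0137). Neither passed, nor did any other member (3 had an unadjusted p under 0.05 in limma), in a comparison where 0.362% of all probe sets passed. Both passed without replicate 3 of sWAT at 28°C, at -1.35 (adjusted p = 0.00356) and -1.55 (adjusted p = 0.00396). Against mWAT the difference of responses was -0.83 (adjusted p = 0.10) and -1.18 (adjusted p = 0.0215), with 0 of 19 member probe sets (3 at an unadjusted p under 0.05 in limma) and 0.582% of all past the threshold. The latter passed without replicate 2 or 3 of sWAT at 28°C (adjusted p = 0.00412 or 0.00955) and was -1.13 (adjusted p = 0.0573) without both mWAT arrays of replicate 3. Between sWAT and mWAT the responses differed by 0.27 ± 0.25 and 0.17 ± 0.24 with 95% intervals of -0.26 to 0.80 and -0.35 to 0.70. No member passed there in limma (2 had an unadjusted p under 0.05), and 0% of all probe sets did.

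The mean of the brown adipocyte markers rose with cold in every depot, beside Nrg4 in the white depots only. In BAT the 2 Nrg4 probe sets differed by -0.26 and 0.13, and neither passed. The median difference of the 9 markers was smaller in BAT (0.34) than in sWAT (1.82) and mWAT (0.86). Cidea (0.02) and Cox8b (0.07) did not pass in BAT, while Elovl3 did. The mean over 9 brown adipocyte markers lay between 11.7 and 11.9 on the BAT arrays at 28°C and between 12.8 and 12.9 at 6°C. The sWAT arrays went from 8.36 to 8.93 at 28°C up to 10.7 to 11.2 at 6°C, and the mWAT arrays from 7.55 to 8.18 up to 8.65 to 9.23. Of the 9 markers 6 rose in sWAT in the cold (Ucp1, Cidea, Elovl3, Cox7a1, Cox8b and Otop1), 1 in mWAT (Ucp1) and 1 in BAT (Elovl3), and their part in the result for Nrg4 was not tested. The summed intensity of the list was 9008 to 12464 in sWAT at 28°C and 43978 to 54537 at 6°C. Among 11379 genes the 5 with the highest Pearson r to Nrg4 over the 18 arrays were Ralgapa2, part of a GTPase-activating complex (r = 0.976), Hibadh, an enzyme of valine breakdown (0.976), Prkar2b, a regulatory subunit of protein kinase A (0.972), the brown fat cytochrome oxidase subunit Cox8b (0.969) and the lipid droplet protein Cidea (0.967). These arrays share groups, and within groups the same 5 genes had an r of 0.54 to 0.74. In sWAT Cidea rose by 1.52 ± 0.24 and Cox8b by 1.82 ± 0.18, whereas Ralgapa2 (0.64, adjusted p = 0.0648), Hibadh (0.41, adjusted p = 0.132) and Prkar2b (0.35, adjusted p = 0.222) did not pass.

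Nrg1, the neuregulin of axons that directs Schwann cells, was dim in every depot. Its 1 probe set read 2.95, 3.76 and 3.25 in BAT at 28°C and 3.80, 3.50 and 3.74 at 6°C. It read 3.58, 6.31 and 3.76 in sWAT at 28°C and 3.41, 3.37 and 4.20 at 6°C, and in mWAT 4.83, 4.74 and 6.03 at 28°C and 4.56, 4.50 and 5.77 at 6°C. Every mWAT array was above every BAT array, sWAT replicate 2 at 28°C was the highest of all, and each group overlapped its neighbour in the order of means. The difference of BAT from mWAT at 28°C was -1.88 ± 0.59 (adjusted p = 0.020). It did not pass, though it did without replicate 2 of sWAT at 28°C (adjusted p = 0.00158), and without both mWAT arrays of replicate 3 it was -1.46 (adjusted p = 0.067).

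Nrg2, known mainly from the nervous system, was higher in BAT than in mWAT, and its BAT levels lay near the array medians. Its probe set 1447654_at read 7.07, 6.98 and 6.85 in BAT at 28°C and 7.25, 7.31 and 7.35 at 6°C. In sWAT it read 6.46, 6.66 and 6.61 at 28°C and 6.53, 6.63 and 6.78 at 6°C, and in mWAT 6.58, 6.41 and 6.31 at 28°C and 6.36, 6.43 and 6.52 at 6°C. All BAT arrays were above all arrays of the white depots, and all 3 BAT arrays at 6°C were above those at 28°C. At 28°C BAT exceeded mWAT by 0.54 ± 0.11, 1.45-fold (adjusted p = 0.00137), and the difference from sWAT was 0.39 ± 0.11 (adjusted p = 0.0129). At 6°C BAT exceeded sWAT by 0.66 ± 0.11 (adjusted p = 0.000389) and mWAT by 0.87 ± 0.11, 1.82-fold (adjusted p = 1.7e-05). Without both mWAT arrays of replicate 3 the difference from mWAT was 0.47 at 28°C and 0.91 at 6°C, both past the threshold. At 28°C it did not pass for Nrg2 with only BAT and mWAT fitted (adjusted p = 0.027) or with the mean of its 3 probe sets (0.38, adjusted p = 0.0348). The difference within BAT, 6 minus 28°C, was 0.34 ± 0.11 (adjusted p = 0.0603). Of the other 2 probe sets, both dim, 1457283_at passed in BAT versus mWAT at 6°C (1.03, adjusted p = 0.0022), a call lost without BAT replicate 2 or mWAT replicate 1 at 6°C (0.0121 and 0.0116) and with only the compared groups fitted (0.0279), and 1444491_at in none of the 12 comparisons.

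Nrg3, a ligand of ErbB4 known from the brain, was dim as well and highest in mWAT. Probe set 1421017_at read 5.27, 4.66 and 5.44 in mWAT at 28°C and 4.70, 5.32 and 5.93 at 6°C. It read 3.52, 3.85 and 3.74 in BAT at 28°C and 4.86, 4.22 and 4.78 at 6°C, and in sWAT 3.58, 3.39 and 3.36 at 28°C and 3.41, 3.23 and 3.21 at 6°C. The mWAT arrays were all above the sWAT arrays, and the BAT arrays at 6°C were all above those at 28°C. At 28°C mWAT exceeded sWAT, with a difference of sWAT from mWAT of -1.68 ± 0.27 (adjusted p = 0.00065), and BAT differed from mWAT by -1.42 ± 0.27 (adjusted p = 0.000683). Without both mWAT arrays of replicate 3 these were -1.52 and -1.26, both past the threshold. With only the compared groups fitted, Nrg3 between sWAT and mWAT did not pass at 28°C (adjusted p = 0.0103) or at 6°C (0.0111), and with the mean of both its probe sets BAT and mWAT at 28°C differed by -0.65 (adjusted p = 0.0112). At 6°C sWAT differed from mWAT by -2.04 ± 0.27 and from BAT, with BAT higher, by 1.34 ± 0.27 (adjusted p = 0.00138), while BAT and mWAT differed by -0.70 (adjusted p = 0.0432). Without both mWAT arrays of replicate 3 the sWAT difference was -1.73 and still passed, and the BAT difference was -0.39 (adjusted p = 0.18), whereas the latter passed without mWAT replicate 1 at 6°C (-1.0 on the log2 scale, adjusted p = 0.00555). The cold difference within BAT was 0.92 ± 0.27 (adjusted p = 0.0376) and did not pass. Probe set 1460289_at, which targets the same gene and is dimmer still, had an r of 0.14 with the first and passed in none of the 12 comparisons. Mesothelial markers stood beside Nrg3: their mean over 7 genes lay between 9.86 and 11.2 on the mWAT arrays and between 4.93 and 5.98 elsewhere, 7 of 7 were higher in mWAT than in BAT and in sWAT at 28°C, and their part in the result was not tested. Their summed intensity was 10042 to 21213 in mWAT and at most 674.5 elsewhere.

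**Figure D2:**
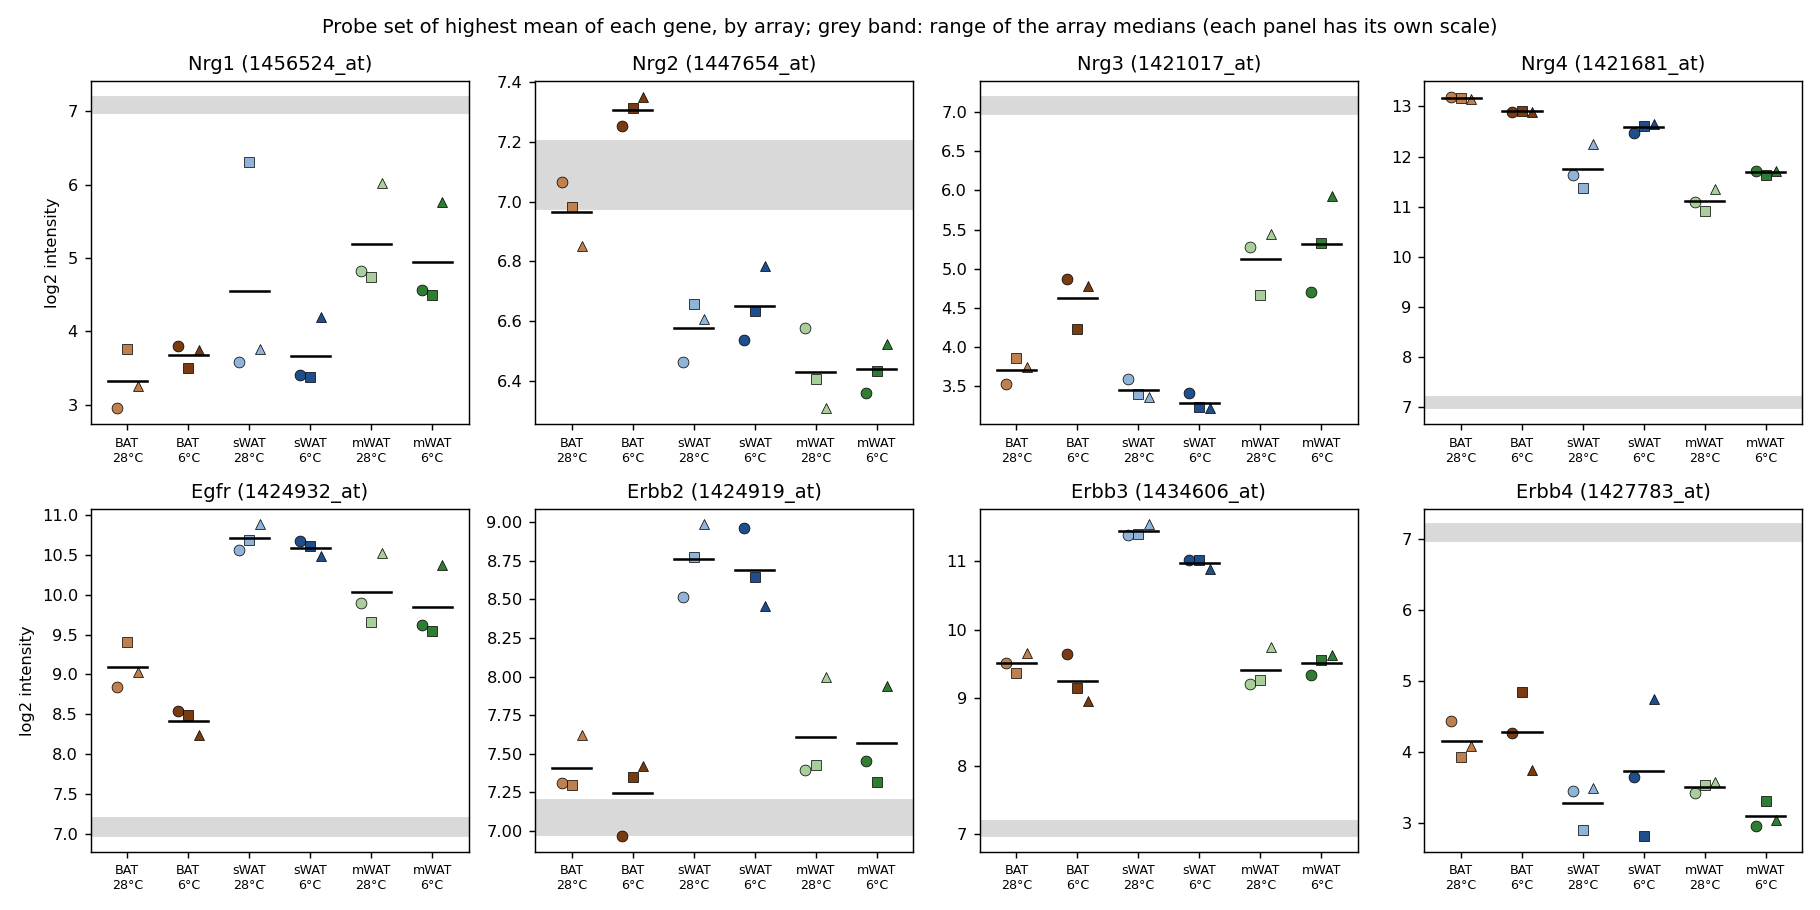
Log2 intensity (vertical axes, each panel with its own scale) of the probe set of highest mean of the 4 neuregulins (top) and the 4 receptors (bottom) on the 18 arrays by depot and temperature. Points are arrays, lines are group means, and the grey band is the range of array medians, 6.97 to 7.20. By group means Nrg4 and Nrg2 sit highest in BAT, Nrg1 and Nrg3 in mWAT, and Egfr, Erbb2 and Erbb3 in sWAT, while Nrg1, Nrg3 and Erbb4 lie below the band throughout.

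Of the receptors, Egfr, Erbb2 and Erbb3 were lower in BAT than in sWAT at both temperatures, and none of the 4 passed in any cold comparison. Egfr, the receptor of EGF, read 8.85, 9.40 and 9.03 in BAT at 28°C and 8.54, 8.49 and 8.24 at 6°C. It read 10.56, 10.68 and 10.88 in sWAT at 28°C and 10.67, 10.61 and 10.48 at 6°C, and in mWAT 9.90, 9.66 and 10.53 at 28°C and 9.63, 9.54 and 10.37 at 6°C. All BAT arrays were below all arrays of the white depots, and in mWAT replicate 3 was the highest at both temperatures. At 28°C BAT differed from sWAT by -1.61 ± 0.24 (3.06-fold lower, adjusted p = 0.000108) and from mWAT by -0.93 ± 0.24 (1.91-fold lower, adjusted p = 0.00584). At 6°C these differences were -2.16 ± 0.24 (4.48-fold lower) and -1.43 ± 0.24 (2.69-fold lower). The call against mWAT at 28°C was lost without replicate 1 or 3 of BAT at 28°C or replicate 1 or 3 of mWAT at 28°C (adjusted p of 0.0122 to 0.0305). It was also lost with only the compared groups fitted (0.0376). Without both mWAT arrays of replicate 3 that difference was -0.68 (adjusted p = 0.005). With the mean of all 7 probe sets of Egfr, BAT and mWAT differed by -0.37 at 28°C (adjusted p = 0.20) and by -0.68 at 6°C (adjusted p = 0.0206), and neither passed.

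The difference of sWAT from mWAT in Egfr, 0.68 at 28°C (adjusted p = 0.0936) and 0.74 at 6°C (adjusted p = 0.0527), did not pass with all arrays. It passed without those 2 arrays, at 0.93 (adjusted p = 0.00273) and 1.0 (adjusted p = 0.00136), and at 6°C also without mWAT replicate 3 at 6°C alone (adjusted p = 0.00858). In BAT the 3 arrays at 6°C were all below those at 28°C, by -0.67 ± 0.24 (adjusted p = 0.0806), and this too passed without the 2 mWAT arrays (adjusted p = 0.00893), which enter it only through the shared spread. Egfr has 7 probe sets. The 4 others that follow the first (r of 0.86 to 0.94) were all lower in BAT than in sWAT at 6°C, by -1.05 to -2.21, and 3 of them at 28°C as well. Of these calls, that of 1457563_at at 28°C was lost with only the compared groups fitted (adjusted p = 0.0126). That of 1435888_at at 28°C was lost without BAT replicate 1 at 28°C. The call of 1451530_at at 28°C was lost without BAT replicate 3 or sWAT replicate 2 or 3 at 28°C. Its call at 6°C was lost without any 1 of 11 arrays, some of them arrays at 28°C that enter only through the shared spread. That of 1460420_a_at at 6°C was lost without BAT replicate 3 or sWAT replicate 2 at 6°C. At 6°C 1435888_at (-1.25) and 1457563_at (-1.35) were also lower in BAT than in mWAT, but not without mWAT replicate 3 (adjusted p of 0.0393 and 0.0222), nor without 12 and 5 other single arrays, and 1435888_at also not with only the compared groups fitted (0.0416). Probe sets 1454313_at and 1432647_at, both below the array medians, had an r of 0.11 and 0.0057 with the first and passed nowhere.

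Fibroblast markers ran beside Egfr. Their mean over 9 genes lay between 12.05 and 12.64 on the sWAT arrays, between 11.7 and 12.5 on the mWAT arrays and between 10.5 and 11.3 on the BAT arrays. Of these 9, which include the collagens and the progenitor receptor Pdgfra, 9 were lower in BAT than in sWAT at 28°C and 8 lower than in mWAT. Their summed intensity was 60881 to 66424 in sWAT at 28°C and 23129 to 29640 in BAT at 28°C, and their part in the result was not tested. The 5 genes most like Egfr over the 18 arrays, among the same 11379 genes, were Tmem158 (r = 0.973), Fndc1 (0.970), Dnm1, a dynamin of vesicle scission (0.970), Capn5, a calpain protease (0.968), and the transcription factor Tfcp2l1 (0.967), with 0.74 to 0.83 within groups.

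Erbb2, the receptor with no ligand of its own, was highest in sWAT. It read 8.52, 8.78 and 8.99 in sWAT at 28°C and 8.97, 8.65 and 8.46 at 6°C. It read 7.31, 7.30 and 7.62 in BAT at 28°C and 6.97, 7.35 and 7.42 at 6°C, and in mWAT 7.40, 7.43 and 8.0 at 28°C and 7.45, 7.32 and 7.94 at 6°C. All 6 sWAT arrays were above all arrays of the other depots, and in no depot did the 2 temperatures separate. BAT differed from sWAT by -1.35 ± 0.21 at 28°C (2.55-fold lower, adjusted p = 0.000205) and by -1.45 ± 0.21 at 6°C (2.72-fold lower). Erbb2 was higher in sWAT than in mWAT by 1.15 ± 0.21 (2.22-fold, adjusted p = 0.00217) at 28°C and by 1.12 ± 0.21 (adjusted p = 0.00252) at 6°C. The former call was lost without sWAT replicate 3 or mWAT replicate 1 or 2 at 28°C, the latter without sWAT replicate 1 or mWAT replicate 1 or 2 at 6°C (adjusted p of 0.0115 to 0.0162). Both were also lost with only sWAT and mWAT at 1 temperature fitted (0.033 and 0.0312). Without both mWAT arrays of replicate 3 the differences were 1.35 and 1.30, both past the threshold. The cold differences of Erbb2 had 95% intervals of -0.62 to 0.29 for BAT, of -0.53 to 0.39 for sWAT and of -0.50 to 0.42 for mWAT.

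Erbb3, the kinase-poor partner of ErbB2, had the clearest separation of sWAT among the receptors. It read 11.39, 11.40 and 11.54 in sWAT at 28°C and 11.01, 11.01 and 10.89 at 6°C. It read 9.52, 9.37 and 9.66 in BAT at 28°C and 9.65, 9.15 and 8.95 at 6°C, and in mWAT 9.20, 9.26 and 9.75 at 28°C and 9.34, 9.55 and 9.62 at 6°C. The sWAT arrays were all above those of the other depots, whose arrays overlapped. BAT differed from sWAT by -1.93 ± 0.18 at 28°C (3.81-fold lower, adjusted p = 1.7e-06) and by -1.72 ± 0.18 at 6°C (3.30-fold lower). Erbb3 was higher in sWAT than in mWAT by 2.04 ± 0.18 (4.12-fold, adjusted p = 2.5e-06) at 28°C and by 1.47 ± 0.18 (2.77-fold) at 6°C, and by 2.22 and 1.53 without both mWAT arrays of replicate 3. These 4 calls held on leaving out any 1 array. All 3 sWAT arrays at 6°C were below those at 28°C, with a difference of -0.47 ± 0.18 that did not pass (adjusted p = 0.259). The other probe set of Erbb3, 1452482_at, lay between 3.21 and 4.47 and passed in none of the 12 comparisons, though in BAT versus mWAT at 28°C (0.64, adjusted p = 0.0139) it did without BAT replicate 2 at 28°C (0.00754) or BAT replicate 3 at 6°C (0.00745).

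Mammary epithelium grows into inguinal fat in females, and the mean of its markers, like Erbb2 and Erbb3, was highest in sWAT. The mean of these markers over 12 genes lay between 10.3 and 11.4 on the sWAT arrays at 28°C and between 9.78 and 9.86 at 6°C. It lay between 4.96 and 7.73 on all arrays of BAT and mWAT. Their summed intensity ranged from 53464 to 71971 in sWAT at 28°C and from 37494 to 42277 at 6°C. At 28°C it ranged from 8773 to 14143 in mWAT and from 467.6 to 3280 in BAT. Of the 12, 9 were lower in BAT than in sWAT at 28°C, and 7 were higher in sWAT than in mWAT, among them the epithelial adhesion gene Epcam, whose arrays at 28°C read 12.4 to 12.9 in sWAT against 7.54 to 7.75 in mWAT. None of the 12 passed with cold in sWAT in limma (median of the list -0.58), where 0.48% of all probe sets did. In the same comparison Erbb2 differed by -0.07 and Erbb3 by -0.47, and neither passed. Between BAT and mWAT at 28°C Erbb2 differed by -0.20 and Erbb3 by 0.11, and neither passed. The part of these markers in the results was not tested. The neural crest factor Sox10, which Schwann cells express, was also higher in sWAT (9.75 to 11.2 at 28°C) than in BAT (7.40 to 7.77) and mWAT (7.45 to 8.54), but the other Schwann cell markers did not follow 1 direction. Of 9, 4 (Cdh19, Gfra3, Foxd3 and S100b) were higher and 3 (Sox10, Pmp22 and Egr2) lower in BAT than in sWAT at 28°C, 3 were higher and 2 (Cdh19 and Foxd3) lower in sWAT than in mWAT, and the mean of all 9 lay between 8.39 and 8.98 on every array. Egr2 is also counted among the early response genes below. The genes most like Erbb3 were the epithelial secretory gene Wfdc2 (r = 0.968), the cadherin Celsr2 (0.961), the epithelial transcription factor Grhl2 (0.960), Eps8l2, named for its likeness to an EGFR substrate (0.959), and Fcgbp (0.958). Within groups these 5 had an r of 0.24 to 0.73 with Erbb3, the lowest for Fcgbp (0.24), Wfdc2 (0.44) and Grhl2 (0.47). Those most like Erbb2 were the basal keratin Krt14 (r = 0.963), C130021I20Rik (0.960), Serpinf1 (0.956), Cdc42ep4 (0.955) and the matrix protease Mmp14 (0.955), with 0.68 to 0.86 within groups. Erbb2 and Erbb3 had an r of 0.92 with each other over the same arrays.

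**Figure D3:**
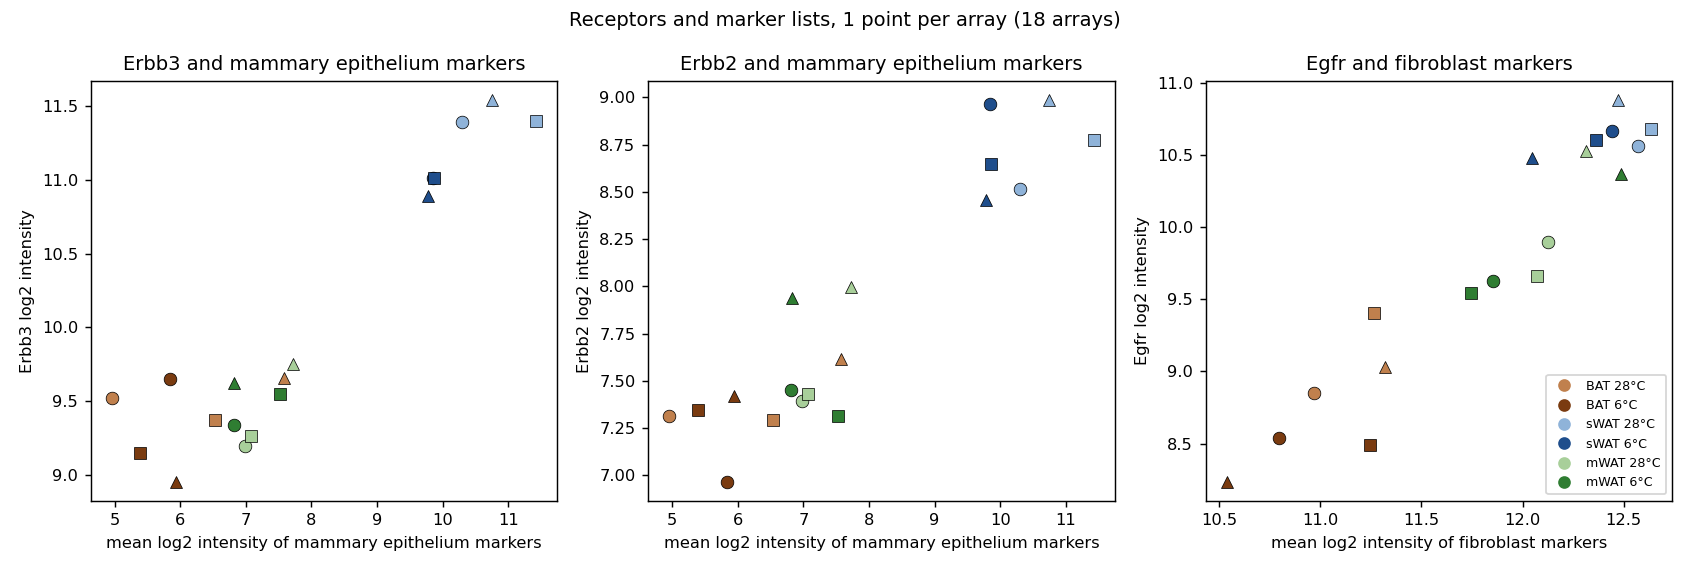
Log2 intensity of Erbb3, Erbb2 and Egfr (vertical axes) against the mean log2 intensity of mammary epithelium markers (left and middle) or fibroblast markers (right), 1 point per array, coloured by group, with circles, squares and triangles for replicates 1, 2 and 3. The 6 sWAT arrays lie apart at the upper right of the first 2 panels, with marker means of 9.78 to 11.4, and in the third BAT lies at the lower left with marker means of 10.5 to 11.3.

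Erbb4, the receptor that NRG3 and NRG4 bind, was below the array medians throughout on its 1 probe set. It read 4.44, 3.94 and 4.08 in BAT at 28°C and 4.27, 4.85 and 3.74 at 6°C. It read 3.46, 2.90 and 3.49 in sWAT at 28°C and 3.65, 2.82 and 4.74 at 6°C, and in mWAT 3.43, 3.54 and 3.58 at 28°C and 2.96, 3.31 and 3.05 at 6°C. The BAT arrays were above the mWAT arrays at both temperatures and above the sWAT arrays at 28°C. None of the 12 comparisons passed. The nearest was BAT versus mWAT at 6°C, 1.18 ± 0.37 (adjusted p = 0.0168), which passed without BAT replicate 3 or sWAT replicate 2 or 3 at 6°C (adjusted p of 0.00301 to 0.00996).

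**Figure D4:**
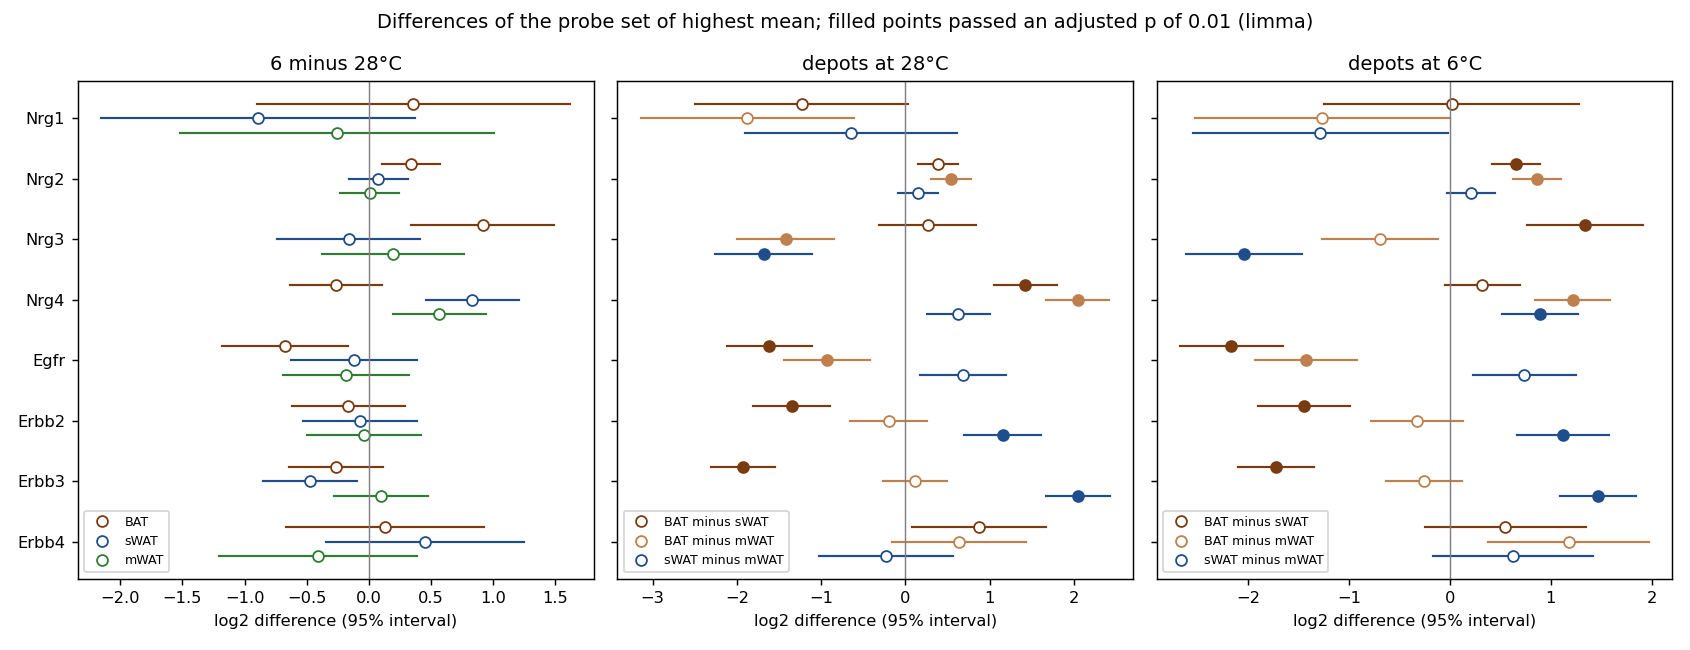
Log2 differences (horizontal axes) with 95% intervals from limma for the probe set of highest mean of the 8 genes, for 6 minus 28°C in each depot (left) and between depots at 28°C (middle) and at 6°C (right). Filled points passed an adjusted p of 0.01. The left panel has no filled point, while Egfr, Erbb2 and Erbb3 in BAT minus sWAT are filled in both depot panels, between -1.35 and -2.16.

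Counts over the family are given beside those over all probe sets. With cold 0 of 19 member probe sets passed in BAT, where 5.28% of all did (3 members had an unadjusted p under 0.05). At 28°C 8 of 19 passed between BAT and sWAT, beside 22.9% of all probe sets, and 5 of 19 between BAT and mWAT, beside 27.2%. Between sWAT and mWAT 4 of 19 passed, beside 5.84%. At 6°C the counts were 9 (23.7% of all), 7 (35.2%) and 5 (7.45%) of 19. For BAT and mWAT the members' shares, 26.3% at 28°C and 36.8% at 6°C, were close to those of all probe sets, and over all probe sets too more passed between depots than with cold. Arrays separated without overlap in 4, 6 and 5 of 19 with cold in BAT, sWAT and mWAT, beside 36.5%, 19.1% and 7.11% of all. Between depots at 28°C, in the order used above, 13, 8 and 10 of 19 separated, beside 52.1%, 50.8% and 25.1% of all. At 6°C 13, 10 and 12 did, beside 53.9%, 55.5% and 26.9%. These counts rest on 8 genes, and probe sets of 1 gene are not independent. The median difference of the 19 was 0.00 for BAT minus sWAT, 0.11 for BAT minus mWAT and 0.56 for sWAT minus mWAT at 28°C, against 0.11, 0.12 and 0.04 over all probe sets. Comparisons that share a depot share its arrays.

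No other ligand of the family passed with cold. Of 7 listed, 6 were measured, and 0 passed in BAT, in sWAT or in mWAT (1, 0 and 1 with an unadjusted p under 0.05 in limma). Of all probe sets 5.28%, 0.48% and 0.00222% passed there, so 0 of so few genes is close to these shares. The largest differences were in Egf, 1.07 ± 0.36 in mWAT (adjusted p = 1.0), and in Epgn (epigen), 0.82 ± 0.38 in BAT (adjusted p = 0.178). Between depots at 28°C Btc, which encodes betacellulin, a ligand of EGFR and ErbB4, was higher in BAT than in sWAT by 1.46 ± 0.36 (adjusted p = 0.00564) and than in mWAT by 2.24 ± 0.36. The EGFR ligand Tgfa was lower in BAT than in sWAT (-0.95 ± 0.24, adjusted p = 0.00592) and in mWAT (-1.61 ± 0.24), at levels below the array medians. The call of Btc against sWAT was lost without replicate 1 or 2 of BAT at 28°C or replicate 2 or 3 of sWAT at 28°C, and that of Tgfa without replicate 2 or 3 of BAT or 1 or 3 of sWAT at 28°C (adjusted p of 0.0202 to 0.0267 and of 0.0106 to 0.0342). Ereg, which encodes epiregulin, had means of 8.62 in mWAT, 4.29 in sWAT and 3.36 in BAT at 28°C, and was lower than in mWAT by -4.33 ± 0.67 in sWAT and -5.26 ± 0.67 in BAT. With only the compared groups fitted, the difference of Ereg between sWAT and mWAT did not pass (adjusted p = 0.0358), nor did that of Tgfa between BAT and sWAT (0.0233).

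Of the enzymes that cut ligands and ErbB4 none passed with cold. Of 14 listed 13 were measured, and 0 passed with cold in any depot (1, 0 and 1 with an unadjusted p under 0.05 in limma for BAT, sWAT and mWAT). The shares of all probe sets that passed were 5.28%, 0.48% and 0.00222%, and 0 of 13 is close to them. The largest differences were in the metalloproteinase Adam12, 0.63 ± 0.25 in BAT (adjusted p = 0.121) and -0.50 ± 0.25 in mWAT (adjusted p = 1.0), and in Bace1, the beta-secretase that cuts NRG1, -0.37 ± 0.22 in BAT. At 28°C Adam10 (-0.79 ± 0.12), Adam19 (-0.89 ± 0.18) and Rhbdf1, a pseudoprotease that steers ADAM17 (-1.08 ± 0.20), were lower in BAT than in sWAT, and Aph1a, a subunit of gamma-secretase, was higher (0.66 ± 0.09). Medians of the list with cold were 0.03 in BAT, -0.08 in sWAT and 0.03 in mWAT, against 0.01, -0.01 and -0.01 over all probe sets.

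Of 24 measured adaptors and kinases downstream of the receptors (30 listed), 2 passed with cold in BAT, where 5.28% of all probe sets passed. Gab1, the docking protein of receptor tyrosine kinases, fell by 0.86 ± 0.17 (adjusted p = 0.00387) and Pik3r1, the regulatory subunit of phosphatidylinositol 3-kinase, fell by 0.88 ± 0.19 (adjusted p = 0.00662). None passed in sWAT or mWAT, where 0.48% and 0.00222% of all did (2 and 0 with an unadjusted p under 0.05 in limma). Whether these genes responded differently between depots was tested, and 0 of 24 passed (2, 5 and 2 with an unadjusted p under 0.05 in limma for BAT against sWAT, BAT against mWAT and sWAT against mWAT). In these comparisons 0.362%, 0.582% and 0% of all probe sets passed. In sWAT Gab1 differed by -0.29 and Pik3r1 by -0.37, with adjusted p of 0.534 and 0.46. The call of Gab1 was lost without any single BAT array except replicate 3 at 28°C and that of Pik3r1 without any except replicate 1 at 28°C (adjusted p of 0.0115 to 0.0366), and both were lost with only the BAT arrays fitted (0.0107 and 0.0417). Of 21 negative regulators and turnover genes 0 passed in any depot with cold (5, 2 and 0 with an unadjusted p under 0.05 in limma). This stood beside 5.28%, 0.48% and 0.00222% of all probe sets in BAT, sWAT and mWAT, and 0 of 21 is close to these shares. The largest differences were in Lrig1, a membrane protein that lowers ErbB receptors (-0.74 ± 0.21 in BAT, adjusted p = 0.0327), and Spry4, a Sprouty inhibitor of ERK signalling (-0.81 ± 0.38 in mWAT, adjusted p = 1.0). At 28°C Errfi1, an inhibitor of EGFR and its relatives, was lower in BAT than in sWAT by -1.34 ± 0.14 and was higher in sWAT than in mWAT by 0.89 ± 0.14.

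Of 17 early response genes of the ERK pathway 1 rose and 2 fell in BAT with cold, beside the 5.28% of all probe sets that passed there. Dusp6, the phosphatase that ERK induces against itself, rose by 0.82 ± 0.14 (adjusted p = 0.00196), while Myc fell by 2.12 ± 0.40 (adjusted p = 0.00316) and the AP-1 gene Jun by 0.92 ± 0.16 on the log2 scale (adjusted p = 0.00215). The mean of Myc in BAT was 8.79 at 28°C and 6.67, below the array medians, at 6°C. In sWAT and mWAT 0 of 17 passed (1 and 0 with an unadjusted p under 0.05 in limma), beside 0.48% and 0.00222% of all probe sets. In a test of the difference between depots 0 of 17 passed (6, 5 and 0 with an unadjusted p under 0.05 in limma for BAT against sWAT, BAT against mWAT and sWAT against mWAT). There 0.362%, 0.582% and 0% of all probe sets passed. The call of Dusp6 was lost without replicate 3 at 28 or at 6°C, that of Jun without replicate 3 at 28°C or replicate 1 at 6°C, and that of Myc without replicates 2 or 3 at 28°C or 1 or 3 at 6°C (adjusted p of 0.0109 to 0.0197). All 3 were lost with only BAT arrays fitted (0.0138 to 0.0328). At 28°C Egr2 (-2.68 ± 0.55), Egr3 (-3.55 ± 0.65), Dusp5 (-1.73 ± 0.16) and Etv5 (-1.63 ± 0.25) were lower in BAT than in sWAT, and Jun was higher (0.79 ± 0.16). Markers of other cells also differed between the BAT groups in which these genes and Gab1 and Pik3r1 passed. The mean over 12 skeletal muscle markers read 9.21, 13.1 and 12.7 in BAT at 28°C and 8.36, 11 and 9.12 at 6°C, with a median difference of -2.55 and 0 of 12 past the threshold (2 at an unadjusted p under 0.05 in limma). Their summed intensity ranged from 10301 to 115888 at 28°C and from 9176 to 30164 at 6°C. Of the 9 fibroblast markers Dcn fell and Loxl1 rose, 7 had an unadjusted p under 0.05 and the median was -0.57. Their part in the results was not tested. The median of the 17 for BAT minus sWAT was -0.42, against 0.11 over all probe sets.

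**Figure D5:**
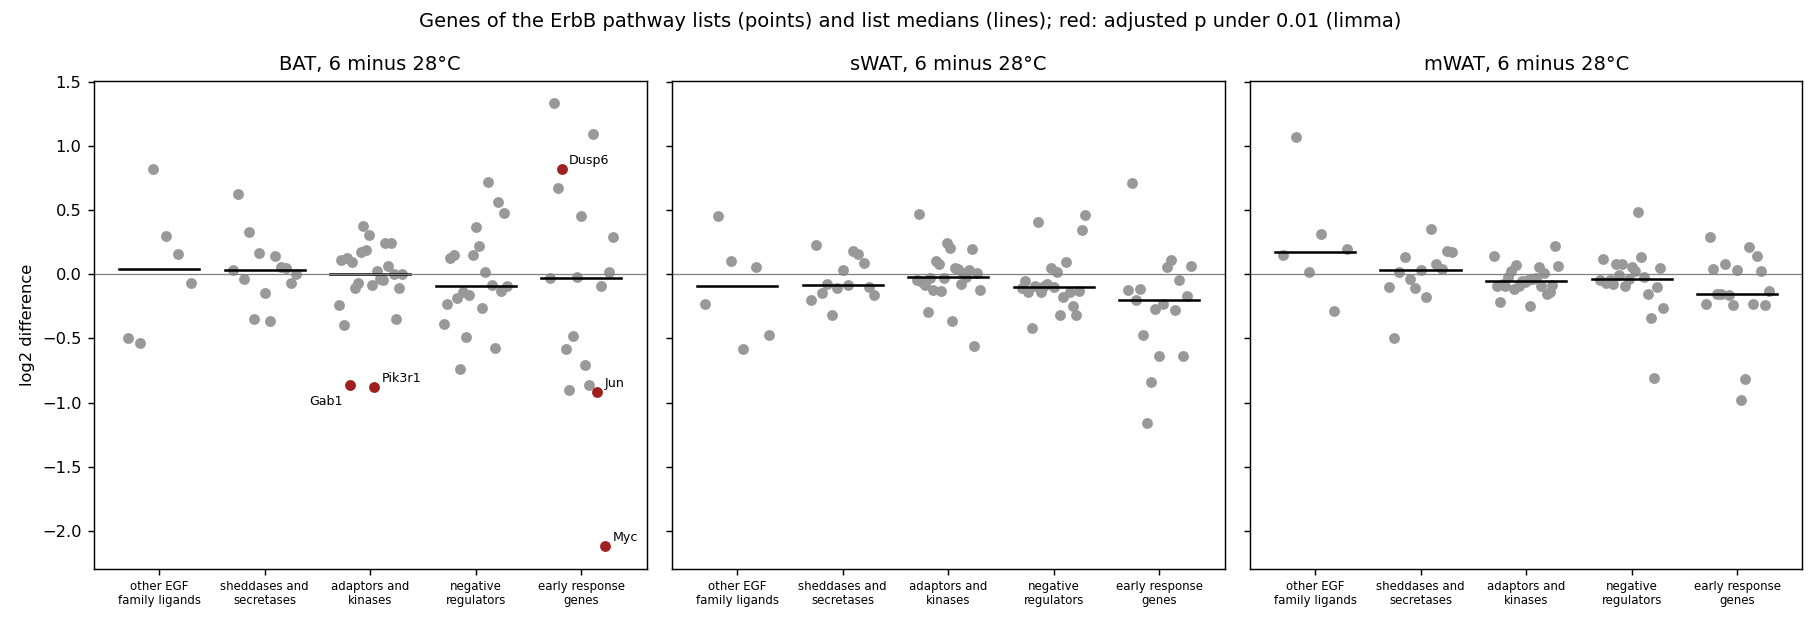
Log2 difference, 6 minus 28°C (vertical axis), of each measured gene of 5 lists around the ErbB receptors (horizontal axis) in BAT, sWAT and mWAT, 1 point per gene, with lines at list medians. Red points passed an adjusted p of 0.01 in limma: Gab1, Pik3r1, Dusp6, Myc and Jun in BAT, and none in the other depots.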

How the data were processed

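The authors adjusted background, summarized probe sets and normalized the arrays with Bioconductor (affy), by an algorithm not given in the sources used here, and deposited linear intensities, 1 for each of 45101 probe sets on 18 arrays. The sources name different array types. Gene names come from GEO's platform annotation, in which 34945 of the tested probe sets name 1 gene, 932 several and 9160 none. Here 64 control probe sets were left out, and limma 3.58.1 (R 4.3.3) was fitted to log2 intensities with 6 group means and 12 residual degrees of freedom. The 12 contrasts were the cold response of each depot (6 minus 28°C), pairs of depots at 1 temperature, and pairs of cold responses. Benjamini-Hochberg adjustment ran within a contrast over all 45037 probe sets, with a threshold of 0.01 as in the study's methods. Here 2377, 216 and 1 probe sets passed with cold in BAT, sWAT and mWAT. The study reports more in each depot, so a probe set that did not pass here may have passed there. The reason for the gap was not tested. No probe set was filtered, and precision is limited by having 3 arrays in a group. Labels give no mouse, so p-values measure the spread between arrays, and whether mice were pooled is not given. The study collected the depots from the same groups of mice, so arrays of different depots may share animals. The depot comparisons ignore any such pairing. The script was tested on simulated data.

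Every probe set of the 8 genes is reported. Of each pathway list the text names the genes past the threshold with cold, or the 2 of largest change, and beside them depot differences at 28°C chosen after their values were seen. Of markers, it names those that touch a result. Likeness was Pearson's r over 1 probe set per gene, among genes above the median of all probe sets. Members and lists were chosen with earlier results of these data known. Promoters are from RefSeq, read with Python 3.11.15.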

Additional observations from a re-analysis of the deposited data

How the results depend on the processing

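No direction of a called value was reversed under any alternative. Counts of member probe sets past the threshold that moved by more than 1.5 times, other than on leaving out 1 array, are given here with the reported count in brackets, and the other counts moved by less or not at all. With an adjusted p under 0.05, 1 (0) passed in BAT with cold, 2 (1) in sWAT, 1 (0) in mWAT, 2 (0) in the difference of cold responses between BAT and sWAT and 1 (0) in that between BAT and mWAT. Asking also for a 2-fold change left 3 (5) in BAT minus mWAT at 28°C and 3 (5) in sWAT minus mWAT at 6°C. Fitting only the compared groups, which gives fewer arrays for the spread, left 0 (1) in sWAT with cold, 3 (5) in BAT minus mWAT and 1 (4) in sWAT minus mWAT at 28°C, and 1 (5) in sWAT minus mWAT at 6°C. Leaving out dim probe sets, which tests fewer members by construction, gave 2 (1) in sWAT with cold, 3 (5) in BAT minus mWAT at 28°C, 5 (9) in BAT minus sWAT and 4 (7) in BAT minus mWAT at 6°C, and 1 (0) in both differences of cold responses against BAT. A variance trend with robust estimates gave 2 (1) in sWAT and 1 (0) in mWAT with cold and 1 (0) in both of those differences. Adding 16 before log2 gave 1 (0) in the difference between BAT and sWAT, and leaving out mesenteric replicate 3 at both temperatures 1 (0) in BAT with cold. Leaving out these mesenteric arrays also gave 10 (8) in BAT minus sWAT and 5 (4) in sWAT minus mWAT at 28°C, and 5 (7) in BAT minus mWAT and 7 (5) in sWAT minus mWAT at 6°C. Where no reason is given, the cause was not tested.

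On leaving out 1 array at a time the cold counts ranged from 0 to 0 for BAT, from 1 to 2 for sWAT and from 0 to 1 for mWAT. They ranged from 7 to 9, 4 to 7 and 2 to 5 for BAT minus sWAT, BAT minus mWAT and sWAT minus mWAT at 28°C, and from 7 to 9, 5 to 7 and 3 to 6 at 6°C. For the differences of cold responses they ranged from 0 to 2, 0 to 1 and 0 to 0. Centring arrays on their medians moved the median of all probe sets by 0.13 to 0.19 in BAT minus a white depot. It took the difference of Egfr between BAT and mWAT at 28°C to -0.80 (adjusted p = 0.0134) and Nrg2 between BAT and sWAT to 0.53 (adjusted p = 0.00255). The mean of all probe sets of a gene gave 1.16 for Nrg4 in sWAT with cold (adjusted p = 0.00211) and -0.37 for Egfr in BAT minus mWAT at 28°C (adjusted p = 0.20). The total of probe sets called in sWAT with cold, 216, was 2 with the compared groups only and 442 without dim probe sets. Alternatives for the pathway lists were added after the data were seen. In BAT with cold the early response genes, 3 as reported, counted 6 at an adjusted p under 0.05, 1 with a 2-fold change and 0 with the compared groups only. No paired analysis was possible because the labels give no mouse and the replicate numbers only follow the order of the samples.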
